A study of Schizosaccharomyces pombe with 4 samples.

Results

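The glycine cleavage mRNAs of fission yeast were examined in a CRAC experiment on Mkt1, a conserved protein with a PIN-like domain. They are gcv1, gcv2 and gcv3, chosen by name as the genes of the T, P and H subunits, and are 3 of the 2028 genes to which at least 1 cDNA was assigned. CRAC joins a tagged protein to the RNA it touches with UV light, purifies the protein and sequences the attached RNA as cDNA, so a cDNA marks a stretch of RNA that was next to the protein. Schizosaccharomyces pombe cells carried Mkt1 with a His6-TEV-ProtA tag (mkt1-HTP-KanR) in 1 strain and untagged in the control strain. Both strains were h+ and shared the centromere reporter otr1R(Sph1):ade6+, the allele ade6-210, and the alleles leu1-32 and ura4D18. Both strains grew in PMG medium without tryptophan at 32 °C and were irradiated for 42.5 s. Each strain gave 2 libraries, numbered 1 and 2.

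Glycine cleavage takes place in mitochondria, where it breaks glycine down to carbon dioxide, ammonia and a 1-carbon unit. The P subunit, encoded by gcv2, removes the carboxyl group and passes the remaining aminomethyl group to a lipoyl arm on the H subunit, encoded by gcv3. The T subunit, encoded by gcv1, releases ammonia and hands the 1-carbon unit to tetrahydrofolate. The L subunit, encoded by dld1, reoxidises the lipoyl arm and also serves the 2-oxoacid dehydrogenases. All of these proteins are encoded in the nucleus.

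The files held 24468 and 26899 distinct cDNAs in the Mkt1-HTP libraries and 1743 and 8142 in the controls. The gcv mRNAs took 734 and 691 of the former and 6 and 1 of the latter. A cDNA was counted for a gene only where it lay on the gene's strand, and no cDNA lay on the opposite strand within 500 nt of any of the 3 genes. No RNA abundance is used here, so a high count cannot be told apart from an abundant mRNA. The control libraries were shallow and poor in mRNA, with 157 and 477 mRNA cDNAs against 11850 and 11206 in Mkt1-HTP. Of the control rows, 718 in library 1 and 2042 in library 2 had exactly the ends of a cDNA in the Mkt1-HTP library with the same sequencing index. Over all rows, matches with the Mkt1-HTP library of the other index were not counted, so a link to the index was not tested.

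All 3 mRNAs are unspliced in their annotated form and differ mostly in length. The gcv2 mRNA (SPAC13G6.06c; chromosome I, minus strand, 182337 to 186293) is 3957 nt long, with 1031 codons and a 3′UTR of 639 nt. The gcv1 mRNA (SPAC31G5.14; chromosome I, plus strand, 3012456 to 3014213) is 1758 nt long, with 387 codons and a 3′UTR of 457 nt. The gcv3 mRNA (SPBP19A11.01; chromosome II, plus strand, 2848474 to 2849481) is 1008 nt long, with 169 codons and a 3′UTR of 449 nt. The 3′UTR thus forms 16.1% of the gcv2 mRNA, 26.0% of gcv1 and 44.5% of gcv3.

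The stretches on which the positional results turn lie in these 3′UTRs. Positions below are counted from 1 at the first base after the stop codon. Each window of 29 nt is written 5′ to 3′ on the mRNA strand in DNA letters, from RefSeq assembly ASM294v3. In the first 4 windows the capital is a base that was deleted in at least 5 cDNAs of each Mkt1-HTP library, a reverse transcription error that CRAC uses to place the crosslink. In the last window it is the most covered base of gcv3.
gcv1 +90 (chrI:3013832-3013860, plus strand): aactttgtcacagcTttttgttctcttcg
gcv2 +41 (chrI:182921-182949, minus strand): ttacttcaacctttTcccagttaagttca
gcv2 +247 (chrI:182715-182743, minus strand): caacaaccttttttTaatctgataatcta
gcv3 +275 (chrII:2849293-2849321, plus strand): agtcataacatcgcTttcttctttttttg
gcv3 +387 (chrII:2849405-2849433, plus strand): tttgctactttagaGacttagccttccat
All 4 recurrently deleted bases were U in the RNA and each sat at 1 end of a run of U.

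The first question was whether the tagged protein recovered these mRNAs above the untagged control. All 3 passed the edgeR test as higher in Mkt1-HTP than in the control, as did 3.12% of the 417 genes tested, while 1.68% passed as higher in the control. The P subunit mRNA gcv2 gave the most cDNAs, followed by gcv1 and gcv3. Together with the counts of every other mRNA seen (1700), this placed gcv2, gcv1 and gcv3 at ranks 6, 7 and 8 of the Mkt1-HTP mean, and at the same ranks in each library.

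For the P subunit, gcv2 gave 324 and 281 cDNAs in the Mkt1-HTP libraries, against 3 and 0 in the controls. As CPM, the count scaled to 1000000 distinct cDNAs of a library, its level was 13242 and 10447 against 1721 and 0. For the T subunit, gcv1 gave 215 and 229 cDNAs against 0 and 0, or 8787 and 8513 CPM against none. For the H subunit, gcv3 gave 195 and 181 cDNAs against 3 and 1, or 7970 and 6729 CPM against 1721 and 123. The groups did not overlap for any of the 3 mRNAs, which held for 55.4% of the 417 tested genes, and control library 1 was the higher control for gcv2 and gcv3.

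The mean level in Mkt1-HTP was 11844 ± 1977 CPM for gcv2, 8650 ± 194 for gcv1 and 7349 ± 877 for gcv3 (SD, n = 2). The T subunit mRNA gcv1 was at least 28.5-fold higher than the control, set against a floor of 3 counts over both control libraries. With all libraries of a group pooled, gcv2 was 38.8-fold higher (95% exact interval for counting error 13.2 to 189) and gcv3 was 18.1-fold higher (7.01 to 66.7). In the edgeR quasi-likelihood test across 417 genes the Benjamini-Hochberg adjusted p was 3.24e-05 for gcv1, 0.00120 for gcv2 and 0.0282 for gcv3. The fitted log2 fold change was 4.70 (SE 1.10) for gcv2 and 3.65 (SE 1.13) for gcv3. For gcv1 it was 10.05 (SE 1.96), with no control cDNA in either library. The median over all tested genes was 4.78, the value of genes such as ypt3 with 6 and 5 cDNAs against 0 and 0. Such a value rests on few cDNAs, so this median is not a measure of typical enrichment. With near-identical cDNAs counted once the median was 0.98, below the value of each subunit in that fit. The 3 subunits were among 13 genes called higher. DESeq2, which called 3.12% of genes higher in Mkt1-HTP, gave an adjusted p of 0.000595 for gcv1, 0.0110 for gcv2 and 0.0458 for gcv3.

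**Figure D1:**
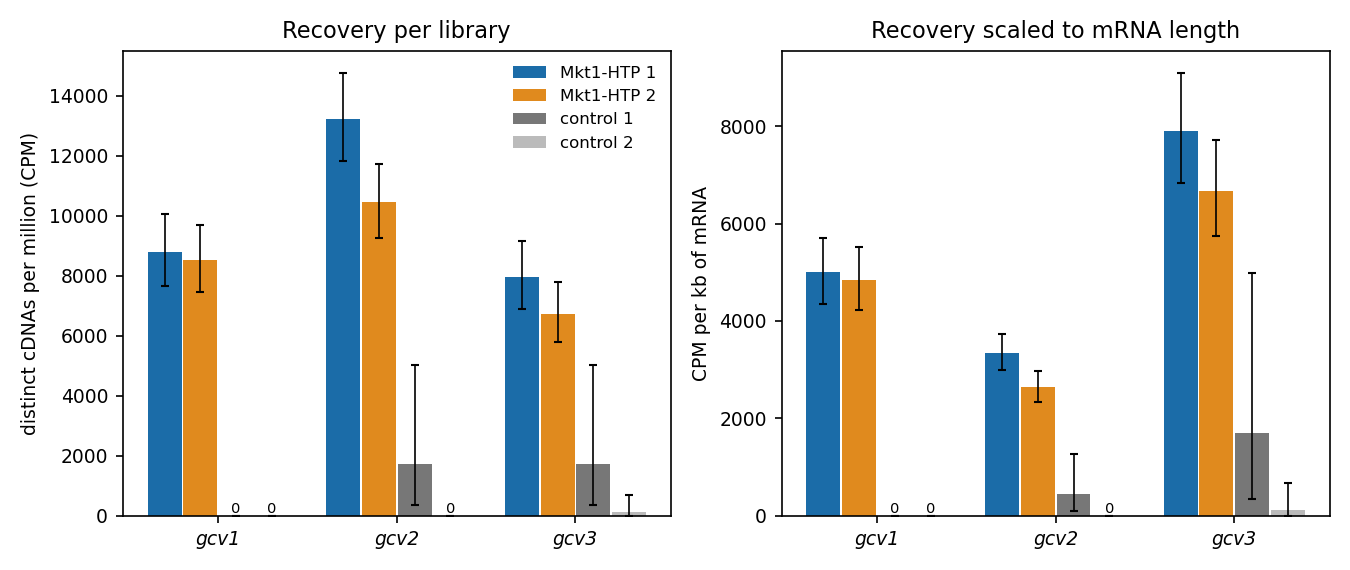
Recovery of gcv1, gcv2 and gcv3 in each of the 4 libraries as CPM (left) and as CPM per kb of mRNA (right); bars are single libraries, error lines are exact 95% Poisson intervals for counting error, and 0 marks libraries without a cDNA. By CPM gcv2 stood highest at 13242 and 10447, whereas per kb gcv3 stood highest at 7906 and 6675.

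These calls depended on how the shallow controls were scaled and on the number of libraries. With the library numbers as blocks, since same-numbered libraries carried the same index, edgeR's adjusted p was 0.0456 for gcv1, 0.0816 for gcv2 and 0.618 for gcv3, with 1.2% of genes called higher. The fitted log2 fold change was 4.87 for gcv2 and 3.76 for gcv3 in that fit, no smaller than without the block. Scaled to mRNA cDNAs alone, none of the 3 passed in edgeR (adjusted p 0.298 for gcv1 and 0.686 for both others), and of all genes 0% were called higher (54 genes had an unadjusted p under 0.05 in either direction). The P subunit mRNA gcv2 made up 1.91% of the mRNA cDNAs of control library 1 (95% Wilson interval 0.652 to 5.47) against 2.73% in Mkt1-HTP library 1. The H subunit mRNA gcv3 likewise made up 1.91% of the mRNA cDNAs there (0.652 to 5.47) against 1.65% in Mkt1-HTP library 1. In the second pair gcv2 made up 0% of the mRNA cDNAs of control library 2 (up to 0.799) against 2.51% in Mkt1-HTP library 2. There gcv3 made up 0.210% (0.0370 to 1.18) against 1.62%. The order of control and Mkt1-HTP was thus the same in both pairs for gcv2 and changed for gcv3. On that scale gcv1 was at least 4.08-fold higher. Without control library 1 all 3 passed in edgeR, the largest adjusted p being 2.80e-14, with 6.31% of genes called higher, and against control library 2 alone gcv1 was at least 23.5-fold higher, gcv2 at least 32.1-fold higher and gcv3 59.6-fold higher (10.6 to 2360). Against control library 1 alone gcv1 was at least 5.03-fold higher, gcv2 6.84-fold higher (2.33 to 33.3) and gcv3 4.25-fold higher (1.44 to 20.7). Without either Mkt1-HTP library no subunit passed (adjusted p 0.324 to 0.814), and of all genes 0% and 0.375% were called higher.

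The few control cDNAs all lay in the 3′UTRs. The 3 gcv2 control cDNAs had their midpoints at +174.5, +187.5 and +248. In the bin around +187.5 (+176 to +200) Mkt1-HTP had 9 and 6 gcv2 cDNAs, and in that around +248 (+226 to +250) it had 46 and 40. The 4 gcv3 control cDNAs had theirs at +341.5, +385.5, +386 and +397. Mkt1-HTP had 15 and 6 gcv3 cDNAs in the bin from +326 to +350 and 71 and 88 in the bin from +376 to +400. Of the gcv3 rows, 1 of 3 in control library 1 and the single row in control library 2 had the exact ends of a cDNA in Mkt1-HTP library 1, and none of the 3 gcv2 rows did. None of these 7 cDNAs carried a deletion, while over other mRNAs 3.97% of cDNAs in control library 1 and 23.9% in control library 2 did.

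The second question was how the cDNAs were split between the subunits. The P subunit mRNA gcv2 took 44.1% and 40.7% of the gcv cDNAs in Mkt1-HTP libraries 1 and 2, gcv1 took 29.3% and 33.1%, and gcv3 took 26.6% and 26.2%. Each subunit's share of all mRNA cDNAs lay within 1.62% to 2.73%, and the difference between the replicates was not detectable for any of them at this depth. For gcv1 the share in library 1 minus that in library 2 was -0.229 percentage points (95% interval -0.588 to 0.126, Fisher's exact test, adjusted p = 0.426). For gcv2 this difference was 0.227 points (-0.187 to 0.640, adjusted p = 0.426 by the same exact test). For gcv3 it was 0.0304 points (-0.299 to 0.358, adjusted p = 0.876 by the same exact test).

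Scaled to the whole length of the mRNA the order turned around. Per kb of mRNA the H subunit mRNA gcv3 was highest, at 7906 and 6675 CPM per kb. The T subunit mRNA gcv1 followed at 4998 and 4843. The P subunit mRNA gcv2 was lowest at 3346 and 2640. The 3 ranges did not overlap, and gcv3, gcv1 and gcv2 ranked 6, 7 and 9 per kb among mRNAs. The ratio of gcv1 to gcv3 per kb was 0.632 and 0.725, the ratio of gcv2 to gcv3 was 0.423 and 0.395, and that of gcv1 to gcv2 was 1.49 and 1.83. All 6 ratios differed from equality in two-sided exact binomial tests on the cDNAs of a library. The least clear was gcv1 against gcv3 in library 2 (exact binomial adjusted p = 0.00144 over the 6 tests). These tests expect counts in proportion to the whole mRNA, although most cDNAs lay in the 3′UTR. For gcv2, gcv1 and gcv3 the 3′UTR is 639, 457 and 449 nt long. It held 281, 200 and 195 cDNAs in library 1, and 253, 229 and 181 in library 2. Levels per kb of 3′UTR were not tested.

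By plain counts the neighbours gcv1 and gcv3 were closer. In library 1 the ratio of gcv1 to gcv3 counts was 1.10, with an interval of 0.904 to 1.35 (exact binomial adjusted p = 0.348). In library 2 it was 1.27, with an interval of 1.04 to 1.55 (exact binomial adjusted p = 0.0286). Such tests take cDNAs as independent. Rows whose ends both lay within 5 nt of another left only 58 and 54 separate groups for gcv1, 106 and 82 for gcv2 and 57 and 52 for gcv3.

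The third question was where on each mRNA the cDNAs lay. Nearly all lay in the 3′UTR. By the midpoint of the cDNA, 195 of 195 and 181 of 181 gcv3 cDNAs were in the 3′UTR, as were 200 of 215 and 229 of 229 for gcv1 and 281 of 324 and 253 of 281 for gcv2. As shares these were 100% and 100% for gcv3, 93.0% and 100% for gcv1, and 86.7% and 90.0% for gcv2. Over all other mRNAs the share was 68.0% and 67.8%, below every subunit in both libraries. The smallest of these 6 gaps was 18.7 points, for gcv2 in library 1 (95% interval 14.5 to 22.1, Fisher's exact test, adjusted p = 4.13e-14).

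In the untagged controls the share over other mRNAs was 51.0% and 24.8%. Single mRNAs varied widely in this share, a spread that the Fisher's tests do not measure. Among the 21 other mRNAs with 50 or more Mkt1-HTP cDNAs it ran from 0% to 98.6%, with a median of 81.3%. None of them was above gcv3, 3 were above gcv1 and 8 were above gcv2.

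No cDNA of any subunit had its midpoint in the 5′UTR. The coding sequence of gcv3 had none either, which allows up to 1.93% and 2.08% (upper Wilson limit). For gcv1 the coding sequence had 15 cDNAs in library 1 and 0 in library 2, and these 15 lay 173.5 to 314.5 nt before the stop codon. All 15 also overlapped gcv1-antisense-1 (SPNCRNA.875), annotated on the other strand, and they formed 4 near-identical groups. For gcv2 the coding sequence had 43 and 28 cDNAs, 28 and 21 of them within 500 nt of the stop codon.

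Within the 3′UTR the median position differed between the subunits, which was not tested. The T subunit cDNAs lay just after the stop codon, with a median midpoint, over the cDNAs in the 3′UTR, at +98 and +81.5. The P subunit cDNAs spread further, with a median at +144.5 and +143, and overlapped those of gcv1. From +76 to +100 there were 35 and 32 gcv2 cDNAs and 57 and 87 gcv1 cDNAs. The H subunit cDNAs lay near the end of the mRNA, with a median at +361 and +375, which is 88 and 74 nt before the annotated end. The same medians were 359 and 375.5 nt before the end for gcv1 and 494.5 and 496 nt before it for gcv2. Of the 3 mRNAs, gcv3 thus had its cDNAs farthest from the stop codon and nearest to the annotated end in both libraries.

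The most covered base moved little between libraries. In gcv1 it was at +91 to +94 in library 1, with 90 of 215 cDNAs (41.9%), and at +87 in library 2, with 135 of 229 (59.0%). In gcv2 it was at +223 to +228 with 75 of 324 (23.1%), and at +220 to +221 with 96 of 281 (34.2%). In gcv3 it was at +387 with 109 of 195 (55.9%), and at +387 to +388 with 105 of 181 (58.0%). This gcv3 base is the capital G in the window printed above for gcv3 +387.

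The plot of coverage shows a second block of cDNAs in gcv1 downstream of the peak, higher in library 1. In bins of 25 nt over the 3′UTR, the profiles of the replicates shared 68.8% of their area for gcv1, 81.7% for gcv2 and 69.3% for gcv3. The part of the 3′UTR nearest the annotated end was empty in gcv1, whose last cDNA ended 119 and 205 nt before it. In gcv2 the last cDNA ended 49 and 329 nt before it, and in gcv3 13 and 10 nt before it.

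**Figure D2:**
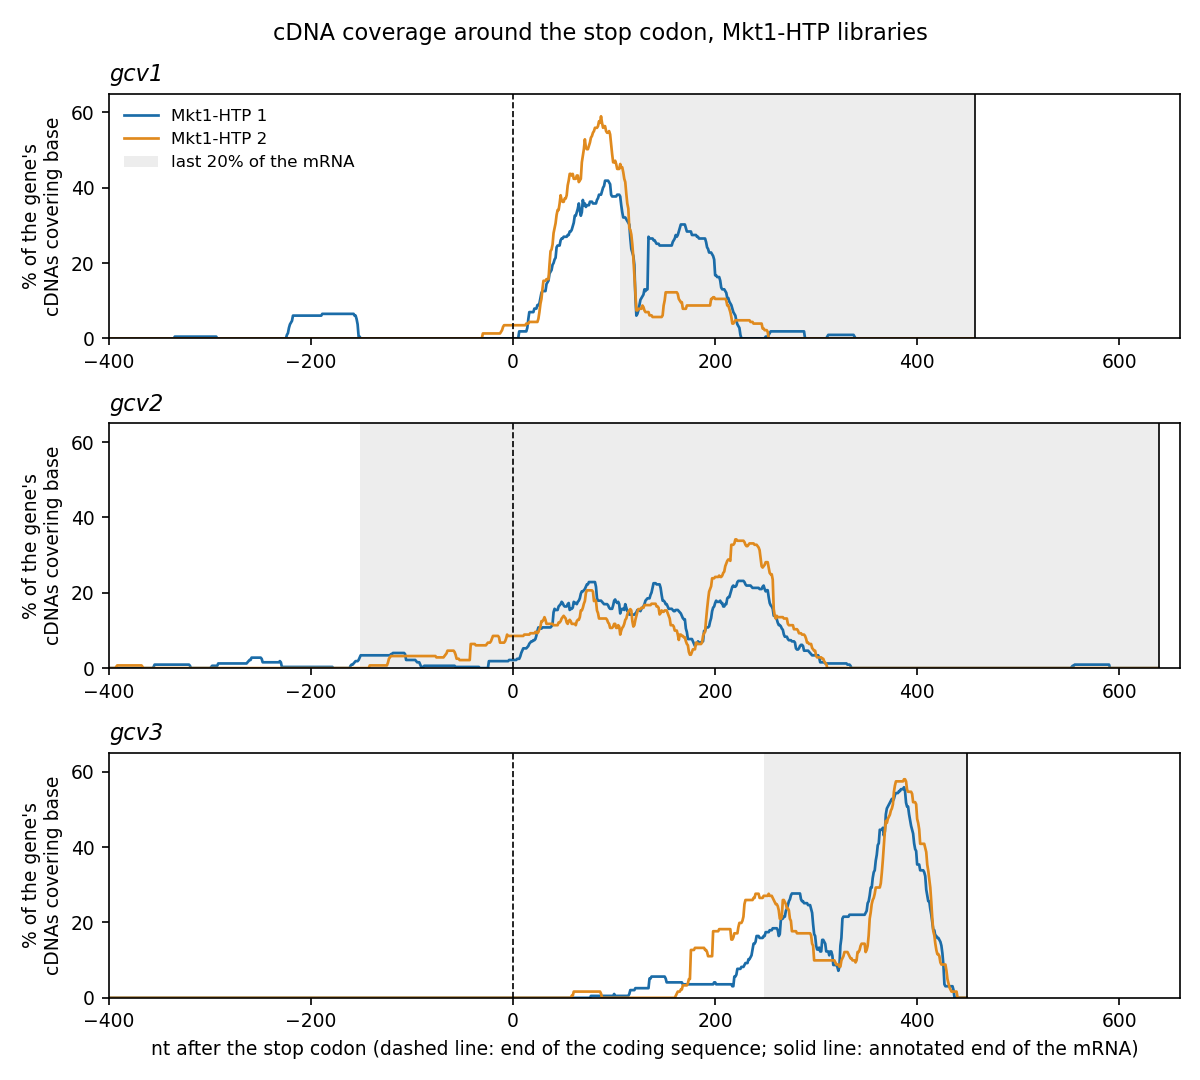
Share of each gene's cDNAs that cover each base, in percent, against the distance from the stop codon in nt, for both Mkt1-HTP libraries; the dashed line is the end of the coding sequence, the solid line the annotated end of the mRNA and the shaded area the last 20% of the mRNA. The peak of gcv1 near +90 falls before the shaded area and that of gcv3 at +387 falls inside it, while all of the gcv2 3′UTR is shaded.

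Measured as the last 20% of the mRNA, the same cDNAs gave another picture. That stretch begins at +106 in gcv1 and +248 in gcv3, but at -152 in gcv2, inside the coding sequence. The share of cDNAs with a midpoint there was 36.3% and 21.0% for gcv1, 91.0% and 96.8% for gcv2 and 91.8% and 79.0% for gcv3, against 69.5% and 69.8% for other mRNAs. The T subunit mRNA gcv1 minus other mRNAs was -33.3 and -48.9 points (95% intervals -39.5 to -26.6 and -53.7 to -43.1, Fisher's exact test, adjusted p = 7.79e-23 and 1.56e-50), while by 3′UTR share gcv1 was above them.

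The P subunit mRNA gcv2 was 21.5 and 27.0 points above other mRNAs, and gcv3 was 22.2 and 9.16 points above them (Fisher's exact test, adjusted p = 0.00751 for gcv3 in library 2, which became 0.0685 with near-identical cDNAs counted once). Counting any overlap in place of the midpoint gave 70.7% and 60.3% for gcv1 against 71.1% and 71.5% for other mRNAs, so that the gap of library 1 nearly closed; these differences were not tested. Between gcv2 and gcv3 the difference, gcv2 minus gcv3, was -0.745 points in library 1 (interval -5.50 to 4.65, Fisher's exact adjusted p = 0.872) and 17.8 points in library 2 (11.8 to 24.5, Fisher's exact adjusted p = 1.70e-09). Of the 21 other mRNAs with 50 or more cDNAs, with a median of 82.6%, 19 had a higher share in the last 20% than gcv1 over both libraries, 7 a higher share than gcv2 (93.7%) and 9 a higher share than gcv3 (85.6%).

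**Figure D3:**
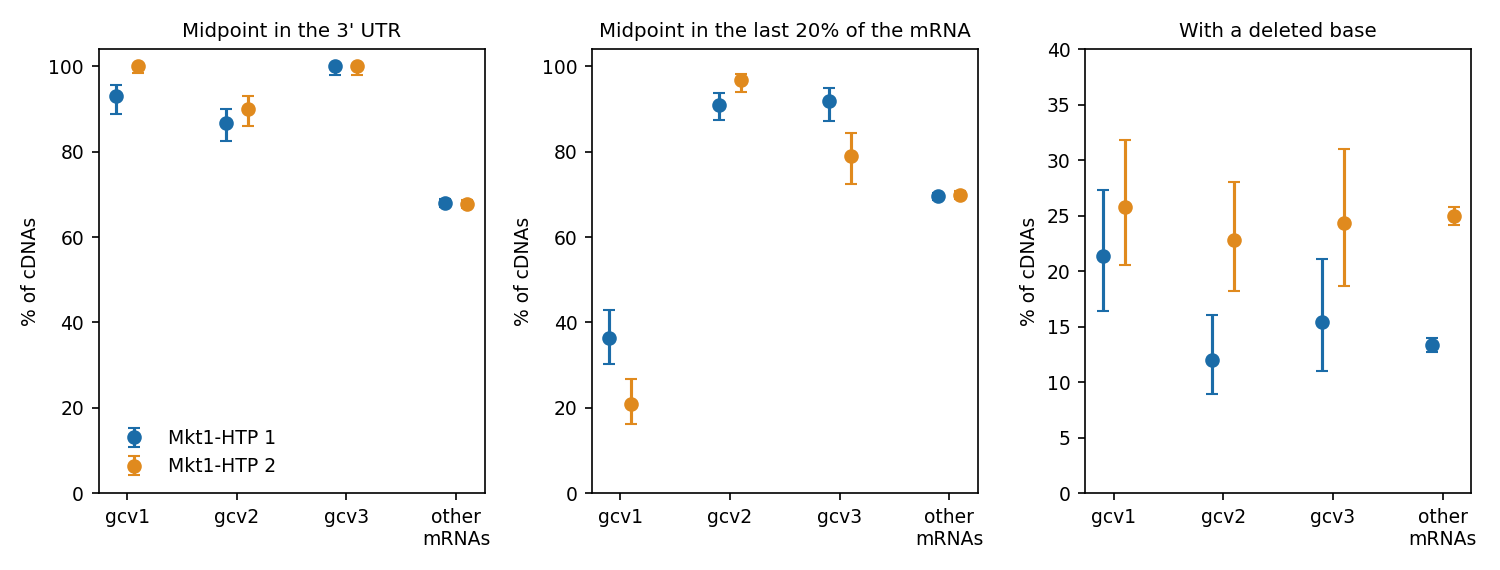
Share of cDNAs, in percent, with the midpoint in the 3′UTR (left), with the midpoint in the last 20% of the mRNA (middle) and with a deleted base (right), for gcv1, gcv2, gcv3 and all other mRNAs; points are single Mkt1-HTP libraries and lines are 95% Wilson intervals. In the middle panel gcv1 lies at 36.3% and 21.0%, below the other mRNAs at 69.5% and 69.8%, and in the right panel the points of library 2 lie above those of library 1.

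Deletions were the fourth measure. In library 1, 46 of 215 gcv1 cDNAs (21.4%), 39 of 324 gcv2 cDNAs (12.0%) and 30 of 195 gcv3 cDNAs (15.4%) carried at least 1 deleted base. In library 2 the shares were 59 of 229 (25.8%), 64 of 281 (22.8%) and 44 of 181 (24.3%). All 3 subunits were higher in library 2, and so were all other mRNAs, at 13.3% and 24.9%. The untagged control library 2 had 23.9% for other mRNAs and control library 1 had 3.97%.

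Against other mRNAs, gcv1 was 8.07 points higher in library 1 (95% interval 3.08 to 14.1, Fisher's exact adjusted p = 0.00625). The same difference was 0.819 points in library 2 (-4.48 to 6.91, Fisher's exact adjusted p = 0.866). The T subunit mRNA was also 9.36 points above gcv2 in library 1 (2.99 to 16.1, Fisher's exact adjusted p = 0.0211) and 2.99 points above it in library 2 (-4.42 to 10.5, Fisher's exact adjusted p = 0.679). With near-identical cDNAs counted once neither library 1 difference passed (adjusted p = 0.153 and 0.606 by the same exact test). Between replicates gcv2 in library 1 minus library 2 gave -10.7 points (-16.8 to -4.71, Fisher's exact adjusted p = 0.00403), which near-identical cDNAs counted once turned to an adjusted p of 0.606.

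Deleted single bases were mostly U. Among deletions of 1 base, U was lost in 10 of 13 and 25 of 33 for gcv1, in 26 of 35 and 33 of 52 for gcv2, and in 13 of 20 and 16 of 22 for gcv3. Deletions of any length numbered 59 and 63 for gcv1, 41 and 74 for gcv2, and 33 and 45 for gcv3. Over all deleted bases U made up 15.1% and 69.6% for gcv1, 62.5% and 61.2% for gcv2, and 52.2% and 64.2% for gcv3. The 3′UTRs themselves hold 43.1% U in gcv1, 39.6% in gcv2 and 41.0% in gcv3. Where a lost base lies in a run of the same base, the files place it at 1 end of the run, so which base of the run was lost cannot be told.

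Few deleted bases recurred in both libraries. In gcv1 6 bases were deleted in both, of 19 in library 1 and 36 in library 2. In gcv2 it was 8 of 24 and 38, and in gcv3 6 of 29 and 29. Of these, 4 bases had at least 5 deleted cDNAs in each library, the bases of the first 4 windows printed above.

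At gcv1 +90 the U was deleted in 5 of 87 covering cDNAs in library 1 and in 15 of 129 in library 2. The most covered bases of gcv1 began next to it, at +91, in library 1 and lay at +87 in library 2. At gcv2 +41 the U was deleted in 13 of 51 and 8 of 32. At gcv2 +247 it was deleted in 6 of 70 and 8 of 75, the latter base lying at the end of a run of 7 U. At gcv3 +275 the U was deleted in 10 of 53 and 5 of 37. As near-identical groups, the deleted cDNAs at gcv1 +90 were 3 in library 1 and 5 in library 2, those at gcv2 +41 were 3 and 3, those at gcv2 +247 were 4 and 6, and those at gcv3 +275 were 4 and 1. The gcv3 site thus rested on a single group in library 2. The gcv3 base lies upstream of the most covered base of its mRNA at +387, and in the 29 nt around that covered base 3 of 113 and 6 of 105 cDNAs had a deletion.

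Other deletions were frequent in 1 library alone. The bases with the most deleted cDNAs of each mRNA among these are shown in the same way, with the deleted base in capitals.
gcv1 +166 (chrI:3013908-3013936, plus strand): tcaactcatctcacAaaatacatacatct
gcv2 +214 (chrI:182748-182776, minus strand): ttagaattatccttTgctggaacatgagg
gcv3 +207 (chrII:2849225-2849253, plus strand): atttcatcatgggcTtttaagacaatttt
The A at gcv1 +166 was deleted in 31 of 65 cDNAs of library 1 and in 0 of 22 of library 2, and the 31 cDNAs formed 5 near-identical groups. The U at gcv2 +214 was deleted in 2 of 61 and 20 of 81, the 20 forming 3 such groups. The U at gcv3 +207 was deleted in 0 of 7 and 17 of 33, the 17 forming 6 such groups. These sites set much of the base make-up of the deletions. In gcv1 library 1, A made up 75 of 106 deleted bases, against 3 of 102 in library 2.

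**Figure D4:**
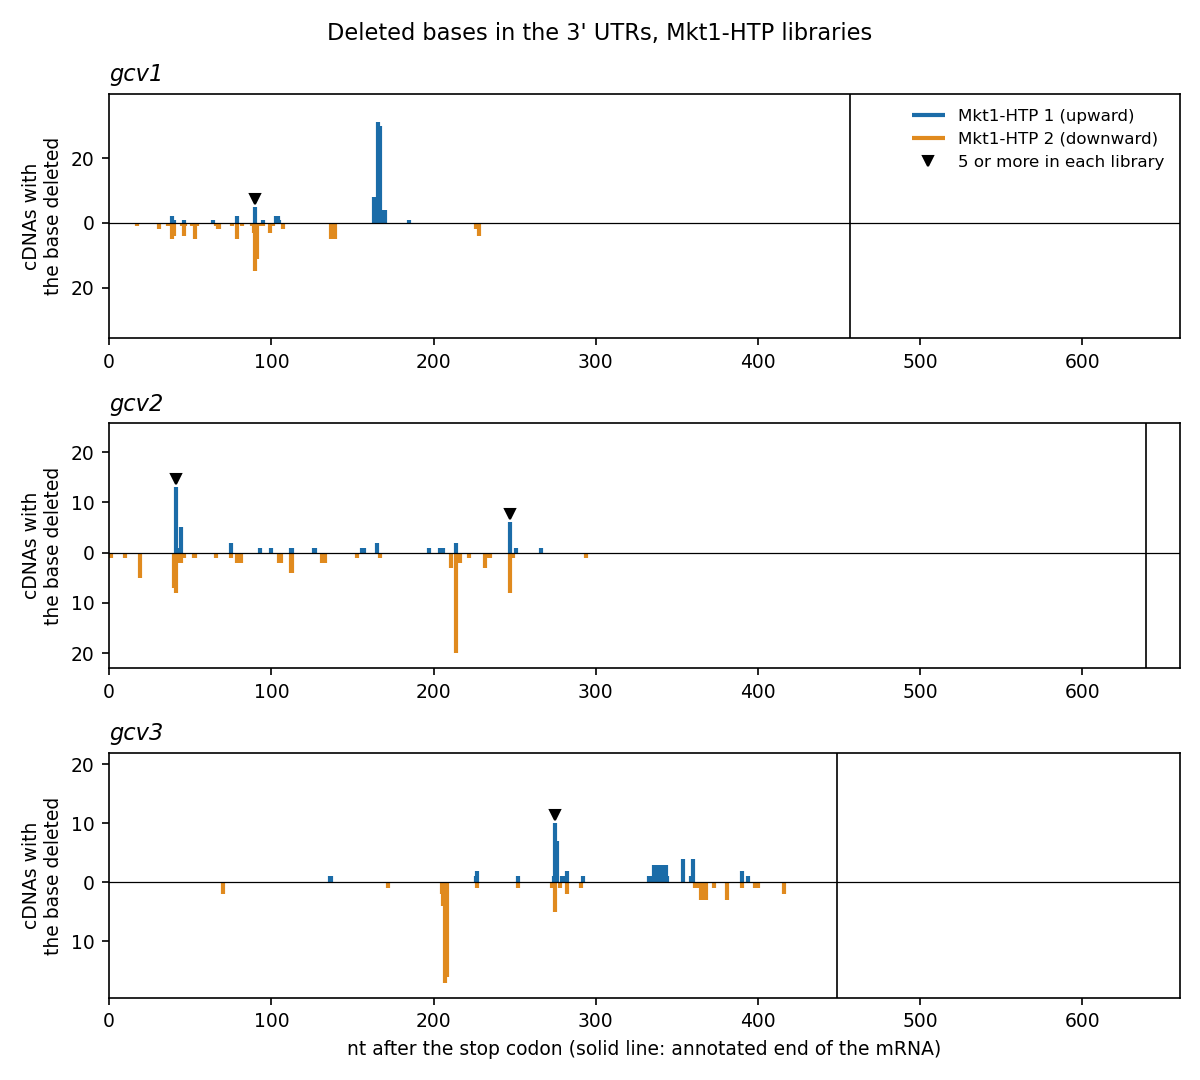
Number of cDNAs with each base deleted against the distance from the stop codon in nt, upward for Mkt1-HTP library 1 and downward for library 2; triangles mark bases with at least 5 deleted cDNAs in each library and the solid line is the annotated end of the mRNA. The 4 triangles sit at +90 in gcv1, +41 and +247 in gcv2 and +275 in gcv3, while the tallest line of each library 2 panel for gcv2 and gcv3 has little or no counterpart in library 1.

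The 4 recurrent windows held 41.4% to 51.7% U, against a median of 37.9% over all 29 nt windows of annotated 3′UTRs. Each is centred on a deleted U in a run of U, so a share above that median was partly set by the choice of windows. Both gcv2 windows held 41.4% U, against 39.6% over the whole gcv2 3′UTR. All 4 held the letters CTTT on the mRNA strand and none held them on the opposite strand. These letters were noticed in the windows first, and 26.1% of the 1892680 windows in 4680 annotated 3′UTRs hold them on the mRNA strand and 16.5% on the opposite strand. The same letters stood on the mRNA strand in 4 of the 6 windows around bases deleted in 10 or more cDNAs of 1 library only. They also stood in 3 of the 3 windows around the most covered bases, so they were not limited to the recurrent deletions. These windows overlap, so the counts reuse letters. The gcv1 window at +91 is in both sets and lies next to the recurrent one at +90. In gcv2 the window at +214 shares its CTTT with that of the most covered base. The windows at gcv1 +166 and +167, and at gcv3 +207 and +208, are centred on adjacent bases. The letters overlap the U runs at which the deletions lie.

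The fifth comparison set the 3 mRNAs beside others of the same metabolism. The L subunit mRNA dld1 (SPAC1002.09c) gave 0 cDNAs in all 4 libraries, on either strand of its locus. Against the 51367 cDNAs of both Mkt1-HTP libraries a floor of 3 counts sets a limit of 58.4 CPM, or 25.0 CPM per kb of its 2333 nt. Per kb the levels of gcv1, gcv2 and gcv3 in Mkt1-HTP were at least 197, 120 and 291 times higher than that limit. The L subunit mRNA was thus the only one of the 4 subunits without a cDNA, and how abundant it was is not known from these files. The 3 gcv mRNAs are on the study's list of Mkt1-bound mRNAs, which was drawn from this same experiment. The contrast with dld1 was therefore partly set by the choice of members.

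Among 12 genes of serine, glycine and 1-carbon metabolism, 7 gave any cDNA, 4 reached the 10 cDNAs needed for the test and 3 were higher in Mkt1-HTP, with none lower, against 3.12% of all tested genes called higher and 1.68% lower. The 4 tested genes reached the minimum through their Mkt1-HTP counts, so their number is no support for a change of the list. The serine hydroxymethyltransferase mRNA shm1, whose enzyme links serine and glycine, gave 705 and 708 cDNAs against 2 and 4 (edgeR adjusted p = 3.86e-07). The mRNA of ser3, 3-phosphoglycerate dehydrogenase at the start of serine synthesis, gave 566 and 432 against 7 and 3 (edgeR adjusted p = 0.00152). The mRNA of thf1, which interconverts tetrahydrofolate-bound 1-carbon units, gave 89 and 96 against 0 and 0 (edgeR adjusted p = 0.00555).

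The fourth tested gene, met9, encoding methylenetetrahydrofolate reductase, gave 10 and 29 against 0 and 0 and did not pass (edgeR adjusted p = 0.315). No cDNA was assigned to shm2, ser1, ser2, dfr1 or fol1 in any library, although ser1 and ser2 encode the steps of serine synthesis that follow ser3. Among 10 genes of lipoate and the 2-oxoacid dehydrogenases, dld1 included, 4 gave any cDNA, 2 were tested and none passed, against the same 3.12% of all tested genes called higher. Of these, lip5, encoding lipoate synthase, gave 36 and 52 cDNAs against 0 and 0 (edgeR adjusted p = 0.0531), and pdb1, a pyruvate dehydrogenase subunit, gave 8 and 3 against 0 and 0 (edgeR adjusted p = 0.484).

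**Figure D5:**
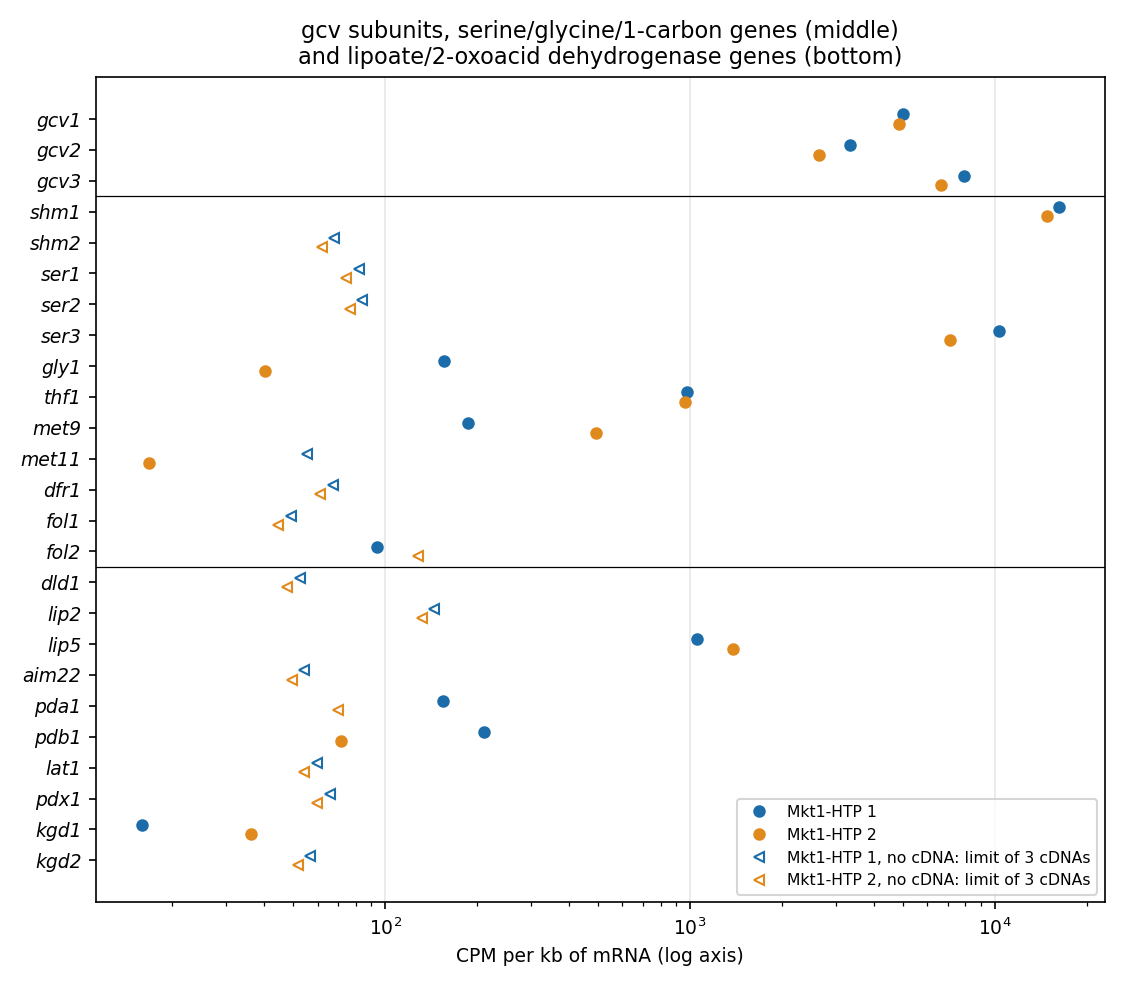
CPM per kb of mRNA on a log axis in both Mkt1-HTP libraries for the gcv subunits (top), 12 serine, glycine and 1-carbon genes (middle) and 10 lipoate and 2-oxoacid dehydrogenase genes (bottom); open triangles are the limits that 3 cDNAs in a library would give for genes without any. The 3 gcv mRNAs lie from 2640 to 7906, below shm1, with dld1 among the genes at their limit.

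The mRNAs most like each subunit were found by the distance between log2 levels, as CPM per kb plus 10, over the 4 libraries. Nearest to gcv3 were ser3 (distance 0.559), met26, encoding methionine synthase (2.27), and shm1 (2.36). Nearest to gcv2 were met17, encoding homocysteine synthase (0.567), met6, encoding homoserine acetyltransferase (1.64), and nmt1 of thiamine synthesis (2.49). Nearest to gcv1 were ade10 of purine synthesis (1.80), cho2 of phospholipid methylation (2.20) and lip5 (2.87). The 3 neighbours of gcv1 shared its counts of 0 in both controls, and the 3 of gcv2 had 2 or 3 cDNAs in control library 1 and 0 in control library 2, as gcv2 did. The control counts are part of the distance, so this likeness was set by the rule. Levels in Mkt1-HTP could still differ, as for lip5 at 1053 and 1384 CPM per kb against 4998 and 4843 for gcv1.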

How the data were processed

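Reads were demultiplexed and stripped of duplicates by the authors with pyCRAC, trimmed with Flexbar and filtered for tRNA with STAR 2.7.1a. Some tRNA cDNAs remained, and they are part of the library totals and of the tested genes. Novoalign 3.09.02 mapped them to ASM294v2, and pyReadCounters (Counters version 1.4.4) wrote the counts, keeping deletions only. The deposited counts are rows, 1 per cDNA with a count of 1. All but 11 and 16 Mkt1-HTP and 3 and 14 control rows differ from every other in ends or deletions, so abundant RNAs are held back. The RefSeq annotation is of ASM294v3; chromosome ends fitted all rows, 98.0% of 2552 gene identifiers were found in it and 99.7% of assigned rows overlapped their gene. Rows on several genes of their own strand were left out.

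Genes with 10 or more cDNAs (417) were tested with edgeR 4.0.16 (quasi-likelihood test, scaled to each library's total of distinct cDNAs, no covariate, common dispersion 0.931; R 4.3.3) at a two-sided adjusted p of 0.05, after the script was tested on simulated data. Its spread was pooled over genes (infinite prior degrees of freedom), so p does not measure a gene's own spread. DESeq2 1.42.0 was an alternative. An exact permutation test of 2 against 2 cannot go below 0.333. Shares (Wilson), counts (Poisson) and Fisher's and binomial tests, at 95%, were computed in Python 3.11.15 (scipy 1.17.1), adjusted over the 12 (3′UTR, last 20%) or 16 (deletions) tests of a measure. They treat cDNAs of 1 library as independent and cover counting error only.

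Groups and numbers came from sample titles. The study calls the libraries biological replicates. The labels give same-numbered libraries the same sequencing index, and their deviations correlated at 0.0837 over 417 genes. The labels disagree on which index belongs to replicate 1, with the same pairs in both readings. The members, lists and the rule for named genes (members, list genes with 10 or more cDNAs, dld1, and the 3 nearest mRNAs of each) were chosen with earlier results of these data known; list genes without cDNAs were named after their counts were seen. Alternatives covered library size, filters, blocks, left-out libraries, strand, near-identical cDNAs counted once and shared control cDNAs removed.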

Additional observations from a re-analysis of the deposited data

How the results depend on the processing

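Of the 3 subunits, 0 passed in edgeR with library sizes of mRNA cDNAs or of the mapped cDNAs of the headers (adjusted p 0.347 for gcv1 and 0.447 for both others), and 1 passed with the replicate block, gcv1. Leaving out 1 library gave 0 to 3, with the lone library assumed to vary like the other group. With all genes of 1 or more cDNAs gcv3 alone was lost (adjusted p = 0.130). All 3 passed with TMM factors, a minimum of 20 cDNAs, genes named singly without strand, near-identical cDNAs counted once (median log2 fold change over all genes 0.98), shared control cDNAs removed, and DESeq2. Of all genes tested, 13 of 417 (3.12%) were called higher, and as many by DESeq2 and with TMM factors. With the minimum of 20 it was 21 of 193 (10.9%), and with near-identical cDNAs counted once 14 of 149 (9.4%). Genes named singly gave 11 of 369 (2.98%), and removing shared control cDNAs gave 14 of 414 (3.38%). All genes gave 10 of 2028 (0.493%) and the block 5 of 417 (1.2%). With either of the 2 other library sizes it was 0 of 417, so there no gene passed.

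Mean shares moved by more than the SD between libraries as follows. With near-identical cDNAs counted once, the 3′UTR share of gcv2 went from 88.4% to 84.8%, the deletion share of gcv1 from 23.6% to 18.9%, and the split from 31.2% to 27.5% for gcv1, 42.4% to 45.8% for gcv2 and 26.4% to 26.7% for gcv3. Per kb the split was 19.6% for gcv2 and 47.9% for gcv3. Any overlap with the last 20% gave 65.5% for gcv1, from 28.6%. Of 12 tests of the 3′UTR share 11 passed, and 9 with near-identical cDNAs counted once, the losses being gcv1 against gcv2 and gcv1 against gcv3 in library 1 (adjusted p = 0.112 and 0.129 by Fisher's exact test). Of 12 tests of the last 20% 11 passed and 10 were kept, and of 16 tests of deletions 4 passed and 1 was kept, that of other mRNAs between libraries. With 1743 and 8142 control cDNAs, a count of 0 allows up to 1721 and 368 CPM.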
